A study of Mus musculus with 2 samples.

Results

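The cytokine genes examined here were the inflammatory genes Tnf, Il1a, Il1b, Il6, Il12b, Il18 and Osm and the regulatory genes Il1rn, Il10 and Tgfb1. These 10 genes were chosen by name as macrophage cytokines, with no threshold on the values, but with earlier results of these data known. The table used here held 9 of them among its 20330 genes, and Il12b was not analysed here. Adipose tissue macrophages (ATM) were sorted by FACS on F4/80 and CD11b from visceral fat of C57BL/6 mice. Both genotypes were Hif-1α fl/fl and ApoE-/- and received a high-fat diet (HFD) for 12 wk, which by the methods of the study began at 4 wk of age. WT mice were hMRP8cre-, whereas myeloid-specific Hif-1α KO mice were hMRP8cre+ and so carried Cre under the human MRP8 promoter, which is active in myeloid cells. The controls therefore also lacked ApoE. There was 1 RNA sequencing library for each genotype, and the labels do not state how many animals were behind a library.

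Cytokines are secreted proteins by which macrophages instruct other cells. TNF and IL-1β are early inflammatory signals made after NF-κB activation, and in fat they are known for interfering with insulin action in adipocytes. IL-10, the IL-1 receptor antagonist and TGF-β1 restrain inflammation or favour repair. Several of these proteins are controlled after transcription, since IL-1β and IL-18 are cut by caspase-1, TNF is shed from the membrane and TGF-β1 is stored in a latent form, so a transcript level is not a level of active cytokine.

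The values are FPKM, a level that takes transcript length and library size into account, so that genes can be compared within a library. The WT library was estimated at 5870000 fragments and the KO library at 7470000 from the smallest FPKM step that recurs among low genes. The labels were checked first on Hif1a, which was at 30.4 FPKM in WT against 20.97 FPKM in KO. Apoe, disrupted in both genotypes, was still counted, at 94.3 FPKM in WT against 117 FPKM in KO. The values of both genes cover the whole gene, and the targeted exons were not examined here, so this check could not settle the labels. Of 9 macrophage markers measured, all were above 0 in both libraries, and Adgre1 and Itgam, which encode the sorting markers F4/80 and CD11b, were at 299 and 128 FPKM in WT and at 239 and 128 FPKM in KO. The macrophage markers that differed most were Fcgr1, at 49.3 and 21.9 FPKM, and Mertk, at 38.0 and 88.1 FPKM. With 1 library per genotype no difference below has a replicate check, so none was tested and no p-value is given. Fewer cells of a type and less RNA per cell cannot be told apart in such bulk samples.

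All 9 cytokine genes were above 1 FPKM in both libraries, and their levels spanned 480-fold in WT and 72.1-fold in KO. Tnf, Il10, Il1b and Tgfb1 were the abundant genes in each library, Il1rn, Osm and Il18 were intermediate, and Il1a and Il6 were the lowest. The order was nearly shared. Tgfb1 and Il1b exchanged the 3rd and 4th places and Il18 and Osm the 6th and 7th, while the other 5 genes held the same place in both libraries. Gene positions below are those of GENCODE M21 on GRCm38, since no annotation of mm9, the build named for the files, was used.

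**Figure D1:**
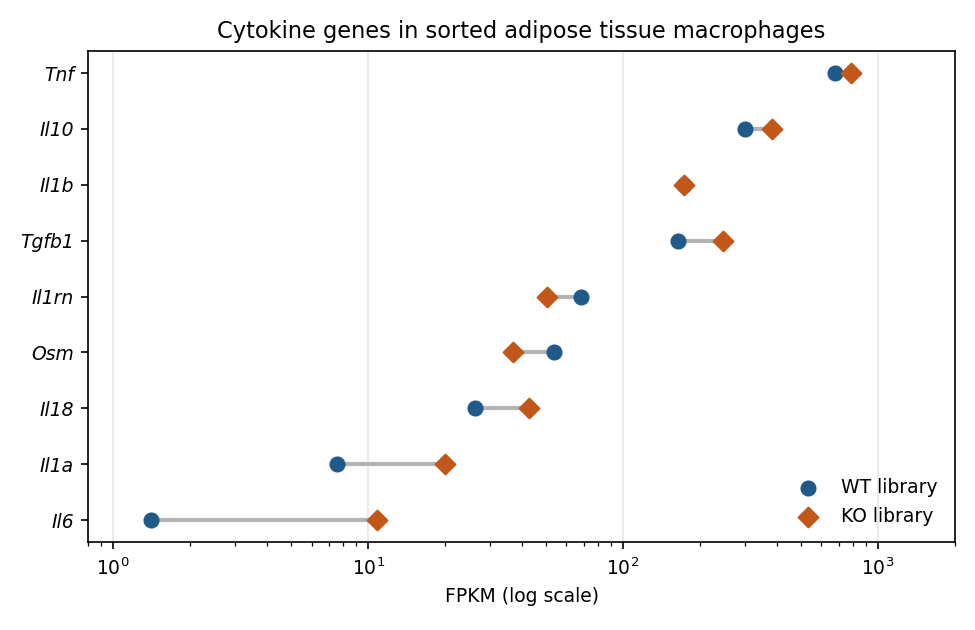
FPKM of each measured cytokine gene on a log axis, with a circle for the WT library and a diamond for the KO library (1 library each, so there are no error bars). The symbols of Il1b coincide at 173 FPKM, and the widest gap is that of Il6, at 1.41 FPKM in WT against 10.9 FPKM in KO.

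Among the inflammatory cytokines, Tnf stood highest. Tnf (ENSMUSG00000024401, chr17:35199381-35202007), which encodes the trimeric ligand of the TNF receptors, was at 678 FPKM in WT against 784 FPKM in KO. It ranked 139th of all genes in WT and 113th in KO, and its KO level was 1.16 times the WT level. Il1b (ENSMUSG00000027398, chr2:129364570-129371139), the precursor of the secreted agonist IL-1β, was at 172.9 FPKM in WT against 172.7 FPKM in KO, so that the libraries differed by less than 1% of its level. These 2 genes rested on an estimated 6174 and 1376 fragments in WT and on 9075 and 1749 in KO.

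Il1a and Il6 showed the widest differences of the set, and both were low. Il1a (ENSMUSG00000027399, chr2:129299610-129309972) encodes IL-1α, an agonist of the same receptor as IL-1β that is active without cleavage. It was at 7.58 FPKM in WT against 19.96 FPKM in KO, which is 2.63 times as high in KO. The estimated fragments were 87.8 in WT (95% exact Poisson interval 70.6 to 108) and 294 in KO (261 to 330). Il6 (ENSMUSG00000025746, chr5:30013114-30019981) encodes a cytokine that drives the acute phase response of the liver. It was at 1.41 FPKM in WT against 10.9 FPKM in KO, a ratio of 7.70, and the difference of log2(FPKM + 1) was 2.30. Its WT value rested on only an estimated 8.72 fragments (4.12 to 17.1), against 85.4 (67.9 to 105) in KO. The intervals were taken on the rounded fragment number. They describe counting error alone, because PCR duplicates are not separate molecules.

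Il18 and Osm lay between these levels and differed in opposite directions. Il18 (ENSMUSG00000039217, chr9:50554827-50581840), a relative of IL-1β that induces interferon-γ in lymphocytes, was at 26.4 FPKM in WT against 42.9 FPKM in KO, or 1.63 times as high in KO. Osm (ENSMUSG00000058755, chr11:4236420-4241026), which encodes oncostatin M of the IL-6 family, was at 53.8 FPKM in WT against 37.0 FPKM in KO, or 1.45 times as high in WT. They were estimated at 121 and 717 fragments in WT and at 250.3 and 628 in KO.

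Of the 3 regulatory cytokines, 2 were higher and 1 was lower in KO. Il10 (ENSMUSG00000016529, chr1:131019845-131024974), which encodes the main anti-inflammatory cytokine of macrophages, was at 302 FPKM in WT against 384 FPKM in KO, a ratio of 1.27. Tgfb1 (ENSMUSG00000002603, chr7:25687002-25705077) was at 165 FPKM in WT against 246 FPKM in KO, a ratio of 1.49. Il1rn (ENSMUSG00000026981, chr2:24336853-24351494), which encodes the antagonist that occupies the IL-1 receptor without signalling, differed in the opposite direction, with 68.4 FPKM in WT against 50.4 FPKM in KO, or 1.36 times as high in WT.

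It was next asked how these differences compared with those of other genes. Differences were taken as log2(FPKM + 1), KO minus WT, and a gene was called at a 3-fold difference on that scale. Of the 9 cytokine genes, 1 (Il6) was called higher in KO and 0 were called lower, whereas of 10297 genes that reached 1 FPKM in either library 13.6% were called higher, 13.7% lower and 27.3% in either direction. The difference was above 0 for 6 cytokine genes and below 0 for 3, beside 5280 and 5017 of the genes compared. Its median was 0.34 over the 9 cytokine genes and 0.03 over all genes compared, with the middle 50% of genes between -0.85 and 0.89.

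The spread between the libraries narrowed with level, and the cytokine genes were set beside genes of their own range. At a mean of 100 to 1000 FPKM, 1.99% of 653 genes were called and 77.5% were within 1.5-fold on the same scale. Tnf, Il10, Tgfb1 and Il1b belong to this range, and all 4 were within 1.5-fold. At 20 to 100 FPKM, 9.80% of 2378 genes were called and 54.9% were within 1.5-fold, as were 2 (Il1rn and Osm) of the 3 cytokine genes there. At 5 to 20 FPKM, the range of Il1a and Il6, 26.6% of 3746 genes were called, with 13.2% called higher in KO. A difference at least as high as that of Il6 was found for 7.77% of the genes in this range, and one at least as high as that of Il1a for 17.3%.

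**Figure D2:**
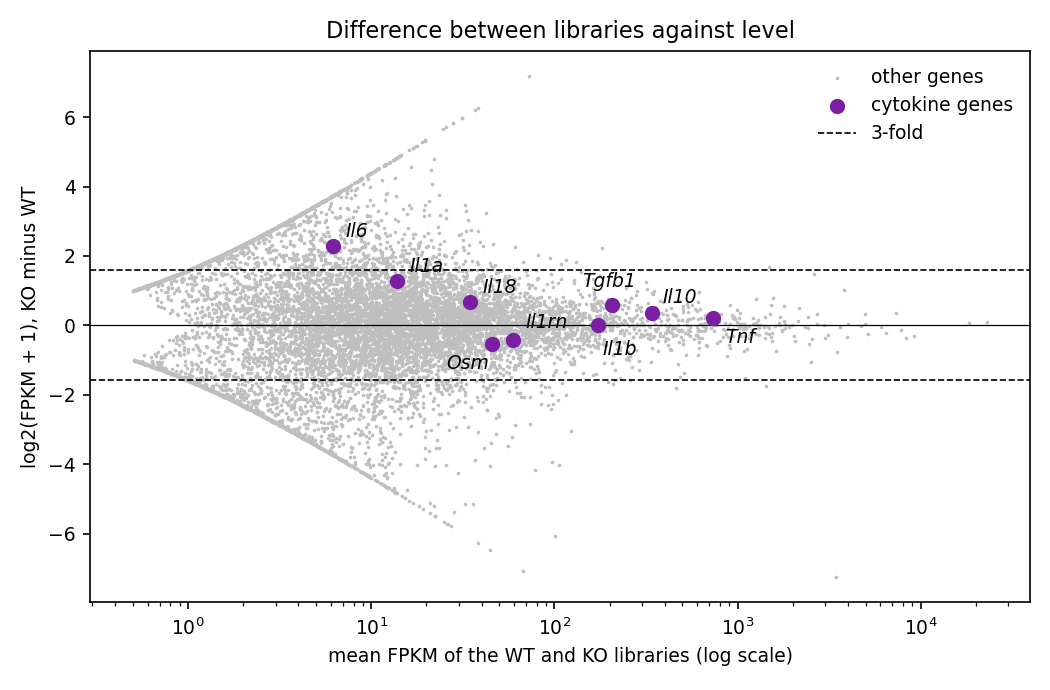
Difference of log2(FPKM + 1), KO minus WT, against the mean FPKM of both libraries on a log axis, for the 10297 genes compared (grey) and the 9 cytokine genes (purple), with dashed lines at 3-fold. The grey cloud narrows with level, and Il6, at 2.30, is the only cytokine gene beyond a dashed line. The curved edges are genes listed at 0 in 1 library.

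Markers of other cells moved between the libraries as well. Of 11 neutrophil markers measured, 7 were higher in KO, 0 were lower and 4 (Camp, Ltf, Mmp8 and Elane) were listed at 0 in both libraries, and their summed level was 158 FPKM in WT against 523 FPKM in KO. S100a8 and S100a9, which monocytes also express, made up most of it, at 73.3 and 63.4 FPKM in WT and at 182 and 301 FPKM in KO, and the next highest was Csf3r at 15.5 and 24.1. All 5 fibroblast markers were higher in KO, with a sum of 43.2 FPKM in WT against 83.9 FPKM in KO. Dcn made up most of that sum, at 35.0 and 62.3 FPKM, and the next highest was Col3a1 at 5.18 and 7.46. Of the 10297 genes compared, 5280 were higher in KO. The sort used F4/80, which most neutrophils lack, and CD11b, which fibroblasts lack. Both cell types can make cytokines of this set, and their part in the differences of Il6, Il1a and the other genes was not tested. Of 6 T-cell markers measured, 5 (Cd3d, Cd3e, Cd3g, Cd8a and Cd8b1) were listed at 0 in both libraries, and Cd4 was at 5.35 FPKM in WT against 2.07 in KO. All 5 NK cell markers and all 5 mast cell markers were listed at 0 in both libraries. Of 5 adipocyte markers, Adipoq and Plin1 were listed at 0 in both, Fabp4, which macrophages also express, was at 90.1 FPKM in WT against 91.4 in KO, Cidec at 5.83 and 0, and Lep at 0 and 1.60. Of 7 dendritic cell markers, Cd209a was at 122 FPKM in WT against 131 in KO, Zbtb46 at 0 and 9.45 and Siglech at 1.42 and 8.31, with the other 4 below 2 FPKM. Of the B-cell markers, Cd79a was at 2.4998 and 0.222 FPKM and Cd79b at 0 and 5.52. Ccr3 was the only 1 of 5 eosinophil markers above 0, at 0 in WT and 7.45 FPKM in KO, as was Upk3b of 4 mesothelial markers, at 0 and 7.84. The 4 endothelial markers summed to 13.6 and 16.0 FPKM.

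Because agonists and their inhibitors act together, levels were also set against each other within each library. Il1b exceeded its antagonist Il1rn 2.53-fold in WT and 3.42-fold in KO. Il10 was at 0.445 of the Tnf level in WT and 0.489 in KO, and Tgfb1 at 0.243 and 0.314. Of these ratios that of the IL-1 agonists differed most, as Il1b exceeded Il1a 22.8-fold in WT and 8.66-fold in KO, with Il1b at nearly equal FPKM in both libraries. Il18 exceeded the transcript of its soluble inhibitor, Il18bp, 2.85-fold in WT and 3.41-fold in KO. These are ratios of single values and were not tested.

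Promoter windows were read to show the sequence before the genes that differed most and the gene that was highest. RefSeq windows on GRCm38.p6, from 250 bases before to 50 bases after the start, were found for 8 of the 10 genes, which had 10 windows in all. The core of the hypoxia response element bound by HIF-1, ACGTG on either strand, was in 0 of these 10 windows and in 19.6% of all 32851 windows. The AP-1 motif TGANTCA was in 3 of the 10 windows (those of Il1a and Il6 and 1 of the 3 of Il1rn) and in 7.81% of all windows. The NF-κB motif was in 1 of the 10 (that of Il6) and in 4.51% of all windows. A match is a description of the letters in this window and not evidence of binding, and a missing match says nothing of sites elsewhere. The windows of Il6 (chr5:30012864-30013163, plus strand), Il1a (chr2:129309923-129310222, minus strand) and Tnf (chr17:35201958-35202257, minus strand) are printed 5′ to 3′ with NF-κB and AP-1 matches in capitals. The NF-κB match of Il6 begins at -44 from the start and its AP-1 match at -249, the AP-1 match of Il1a begins at -12, and the Tnf window holds neither.
Il6: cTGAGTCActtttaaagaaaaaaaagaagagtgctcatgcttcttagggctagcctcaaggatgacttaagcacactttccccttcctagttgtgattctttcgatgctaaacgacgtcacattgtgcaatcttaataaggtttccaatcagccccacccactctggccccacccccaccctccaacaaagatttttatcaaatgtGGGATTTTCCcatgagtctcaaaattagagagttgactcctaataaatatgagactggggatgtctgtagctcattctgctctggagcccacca
Il1a: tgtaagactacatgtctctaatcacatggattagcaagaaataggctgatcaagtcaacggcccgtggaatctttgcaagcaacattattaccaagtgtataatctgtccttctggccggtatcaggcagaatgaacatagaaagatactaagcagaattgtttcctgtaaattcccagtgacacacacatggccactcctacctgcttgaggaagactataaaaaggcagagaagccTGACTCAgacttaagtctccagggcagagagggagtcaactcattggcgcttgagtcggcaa
Tnf: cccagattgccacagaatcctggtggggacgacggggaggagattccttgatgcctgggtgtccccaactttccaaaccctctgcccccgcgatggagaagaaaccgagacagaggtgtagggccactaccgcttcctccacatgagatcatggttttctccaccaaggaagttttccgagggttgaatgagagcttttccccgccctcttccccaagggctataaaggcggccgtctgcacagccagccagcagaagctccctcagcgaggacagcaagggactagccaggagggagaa

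Receptors and binding proteins of these cytokines were compared next, as a list of 20 genes. Of the 16 past the filter 0 were called higher and 1 (Il12rb2) lower, beside 13.6% and 13.7% of all genes, and the median difference was -0.02. The 3 highest genes were Tnfrsf1a and Il10rb, at 123 and 121 FPKM in WT and 106 and 134 FPKM in KO, and Tnfrsf1b, at 102 FPKM in WT against 79.0 FPKM in KO. Thus both TNF receptors and a subunit of the IL-10 receptor were expressed beside their ligands, and the other IL-10 subunit, Il10ra, was at 64.8 FPKM in WT against 72.3 in KO. The IL-6 receptor pair was present as well, with Il6ra at 67.3 and 78.9 FPKM and the shared signalling subunit Il6st at 27.6 and 28.9 FPKM in WT and KO. Of the TGF-β receptors, Tgfbr2 was at 85.5 FPKM in WT against 86.7 in KO, Tgfbr1 at 16.1 and 23.3, and the co-receptor Tgfbr3 at 2.70 and 1.62.

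The receptor genes of IL-1, IL-18 and IL-12 were low, as was the oncostatin M receptor gene Osmr, but not the shared subunit Il6st given above. Il1r1, the signalling IL-1 receptor, was at 0.207 FPKM in WT against 0.633 FPKM in KO, below the filter in both. Its partner Il1rap was at 7.34 FPKM in WT against 2.55 in KO, and the decoy receptor Il1r2 at 5.07 and 4.93. The IL-18 receptor subunit Il18rap was at 6.03 FPKM in WT against 1.64 in KO, with Il18r1 listed at 0 in WT and at 0.158 in KO. Osmr was listed at 0 in both libraries, and Lifr, which encodes the receptor of the related cytokine LIF, was at 63.8 FPKM in WT against 63.2 in KO. Il12rb1 was listed at 0 in both libraries and Il12rb2 at 5.69 FPKM in WT against 0 in KO. An entry of 0 is an estimate by the quantification tool and is not read as absence.

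Genes that mature or release the cytokines formed the next list. Of 19 past the filter, 3 were called lower and 0 higher, beside 13.7% of all genes called lower and 13.6% higher. The difference was below 0 for 14 of the 19, and its median was -0.20, against 0.03 over all genes. The 3 called genes were Pycard, Lrrc32 and Thbs1. Pycard encodes ASC, the adaptor that joins inflammasome sensors to caspase-1, and was at 19.5 FPKM in WT against 1.75 FPKM in KO, on an estimated 245 and 28.0 fragments. Lrrc32, which encodes the GARP protein that holds latent TGF-β1, was at 5.79 and 1.003 FPKM. Thbs1, which encodes thrombospondin-1, an activator of latent TGF-β1, was at 37.8 and 11.0 FPKM.

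Other genes of IL-1β and IL-18 maturation were not called in either direction, and those given here beyond Nlrp3, Casp4 and Furin were chosen after their values were seen. Nlrp3, the sensor, was at 136 FPKM in WT against 191 FPKM in KO, and Casp1, the protease itself, at 33.1 and 30.3 FPKM. Casp4 was at 117 and 182 FPKM, and Gsdmd, which encodes the pore through which IL-1β leaves the cell, at 19.5 and 42.6 FPKM. For TNF, the sheddase Adam17 was at 38.0 FPKM in WT against 34.9 in KO and its partners Rhbdf2 at 97.4 and 91.9 and Rhbdf1 at 14.8 and 5.52. For TGF-β1, the processing protease Furin was at 106 and 91.3 FPKM and Nrros, which anchors latent TGF-β1 on myeloid cells, at 111 and 78.9.

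In the signalling list, 0 of 24 genes past the filter were called, beside 27.3% of all genes in either direction, and the median was 0.06. The 3 highest were Birc3 at 155 FPKM in WT against 144 in KO, Stat3, which transmits IL-6 and IL-10 signals, at 125 and 160.3, and Socs3, its feedback inhibitor, at 99.5 and 112. Among 21 transcription factors and NF-κB feedback genes 0 were called, and the median was 0.06. This list was the most abundant of the pathway lists, with a median level of 137 FPKM, and of all genes at 100 to 1000 FPKM only 1.99% were called. It was led by Junb at 1073 FPKM in WT against 1076 in KO, Fos at 499 and 569, and Nfkbia, the inhibitor of NF-κB, at 392 and 441. Of 12 mRNA decay factors, many of which bind the AU-rich tails of cytokine transcripts, 0 were called, again beside 27.3% of all genes, and the median was 0.18. Zfp36, which encodes tristetraprolin, was the highest at 2030.1 FPKM in WT against 2223 FPKM in KO, above Tnf itself, followed by Zfp36l1 at 347 and 432 and Zfp36l2 at 248 and 281.

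The list of other cytokines held many low genes. Of 36 measured, 17 were listed at 0 in both libraries, and 16 passed the filter, 13 of them with a mean below 20 FPKM. Of the 16, 4 were called higher and 5 lower in KO, with a median of -0.37, beside 27.3% of all genes called in either direction and 26.6% of those at 5 to 20 FPKM. With 1 FPKM required in both libraries, 1 was called higher and 0 lower, beside 5.66% and 5.89% of all genes. The 3 highest were Tnfsf9 at 179 FPKM in WT against 132 in KO, Mif at 109 and 199.7, and Ebi3, a subunit of IL-27, at 69.5 and 56.4. Tnfsf13b, which encodes the B-cell survival factor BAFF, was called with more than 1 FPKM in both libraries, at 1.15 FPKM in WT against 7.69 FPKM in KO. With at least 5 FPKM in the other library, the genes listed at 0 in WT were Il11, at 21.3 FPKM in KO, and Ltb, at 6.44 FPKM. By the same limit, those listed at 0 in KO were Il27 at 13.4 FPKM in WT, Il33 at 7.50 and Lta at 5.29. The 3 remaining calls were chosen for mention after their values were seen, and were Tnfsf14 at 0.0944 FPKM in WT against 19.2 in KO, Clcf1 at 15.2 and 0.406, and Tgfb3 at 3.39 and 0.353. Entries of 0 in 1 library depended on level. Among genes with a KO level of 5 to 20 FPKM, 8.95% had a WT entry of 0, and among those with such a WT level 7.91% had a KO entry of 0. Among genes with a KO level of 20 to 100 FPKM, the range of Il11, 1.91% had a WT entry of 0.

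**Figure D3:**
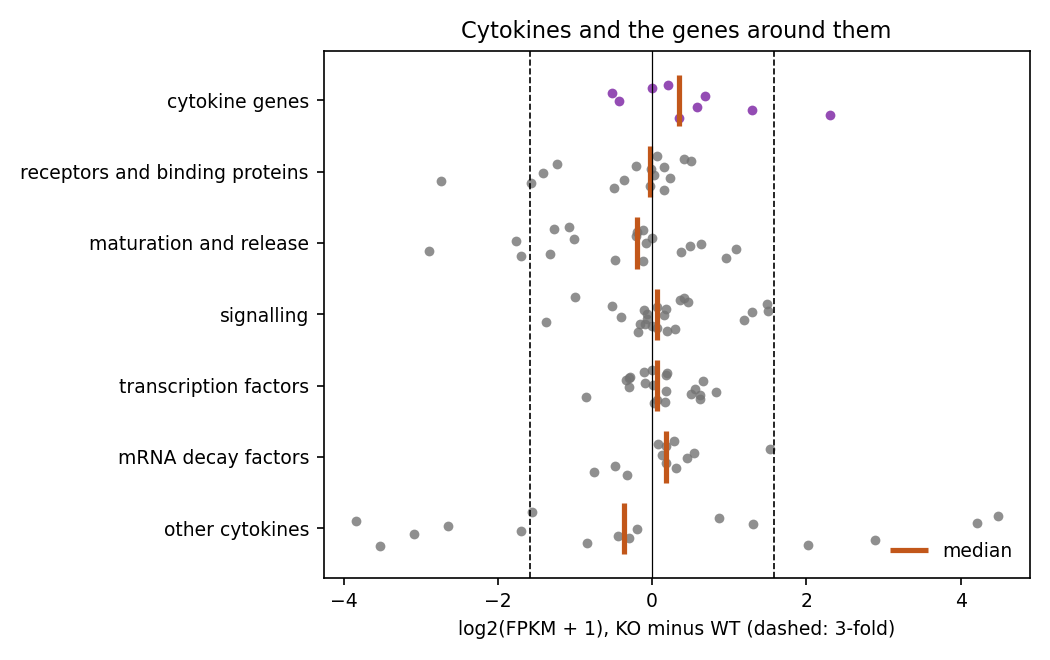
Difference of log2(FPKM + 1), KO minus WT, for each gene past the filter (points; vertical scatter has no meaning), by list, with the median of each list as an orange bar and dashed lines at 3-fold. The 9 cytokine genes have a median of 0.34, the transcription factors all lie between the dashed lines, and the other cytokines reach past both.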

How the data were processed

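RNA of FACS-sorted ATM was sequenced, with 1 WT and 1 KO library. The authors deposited FPKM values for each gene, and per the labels CASAVA 1.8.2, TopHat2 2.0.9, Cufflinks 2.2.1 and the mm9 build were used. The annotation, filters and pooling are not given in the sources used here, and per the labels no step of library preparation marked strand. The mutant column was read as KO, the only library that is not WT.

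Of 20749 rows, 401 full repeats were dropped and 18 rows with other values for a listed identifier were summed. Symbols were matched for 98.5% of 20330 identifiers. Lengths were taken from GENCODE M21, which is on GRCm38 and not mm9, as median lengths of coding transcripts.

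Differences were log2(FPKM + 1), KO minus WT, for genes at 1 FPKM or more in a library, and a gene was called at 3-fold. A pseudocount of 1 understates differences of low genes. Fragments were FPKM x kb divided by the recurring step, 0.170 in WT (19 genes at the step) and 0.134 in KO (20 genes). Alternatives were pseudocounts of 0.1 and 0.01, no filter, 1 FPKM in both libraries, TPM and median scaling, a 2-fold threshold, and the highest of repeated rows kept. Calls and the step finder were tested on simulated data. Python 3.11.15, pandas 2.3.3 and NumPy 2.4.6 were used.

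The members, gene lists and ranges of level were chosen with earlier results of these data known. Named genes were all members, Hif1a, Apoe, Adgre1 and Itgam, the members' receptor subunits, and in each list the 3 highest genes, genes called with at least 1 FPKM in both libraries, and genes listed at 0 in 1 library with at least 5 FPKM in the other.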

Additional observations from a re-analysis of the deposited data

How the results depend on the processing

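No paired analysis was possible because WT and KO have 1 library each, and for the same reason no library could be left out. Of 224 values recomputed under the alternatives, 123 were identical, 80 altered within an allowance of 1.5-fold and 21 moved by more. A change of direction was counted only where a gene differed at least 3-fold or a list median at least 1.5-fold. Only Il6 met this limit, and it kept its direction. The receptor median, -0.02 as reported, was 0.003 with 1 FPKM required in both libraries and 0.03 with values scaled to a sum of 1000000. Il6 was called higher under every alternative, with a difference between 2.27 and 2.94, and Il1a lay between 1.26 and 1.40. The direction of Il1b, at -0.00, turned with scaling, between -0.03 and 0.04, while the other 8 cytokine genes kept theirs. With a 2-fold threshold 2 cytokine genes were called higher, Il6 and Il1a, as were 4 signalling genes, 1 maturation and release gene and 1 mRNA decay factor, and 4 receptor, 7 maturation and release and 1 signalling genes were called lower, beside 23.1% of all genes called higher and 22.5% lower. With a pseudocount of 0.1 or 0.01, 3 receptor genes were called lower, and 2 signalling genes and 1 mRNA decay factor higher, and 0.01 also gave 1 signalling gene lower. Of all genes 18.5% were called higher and 18.0% lower with 0.1, and 18.8% and 18.2% with 0.01. With values scaled to a sum of 1000000, 2 receptor genes were called lower and 2 signalling genes and 1 mRNA decay factor higher, beside 16.7% of all genes called higher and 15.7% lower. With 1 FPKM required in both libraries, the calls were 0 lower for receptors and 1 higher and 0 lower for other cytokines, beside 5.66% of all genes higher and 5.89% lower, because genes below 1 FPKM in either library drop out. Among the measured cytokine genes of the set, the estimated fragments were fewest for Il6, at 8.72 in WT.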

Other observations

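Genes beside the cytokines on the chromosome were examined for whether their levels went together. Coordinates are those of GENCODE M21 on GRCm38 and not of the build named for the files. Lta and Ltb, which encode lymphotoxins, flank Tnf on chromosome 17 at 1.16 kb and 3.06 kb, yet Tnf was at 678 FPKM in WT against 784 in KO while Lta was at 5.29 FPKM in WT against 0 in KO, and Ltb at 0 and 6.44. Il10 lies on chromosome 1 in a cluster with its relatives Il19, Il20 and Il24, with 79.7 kb to Il19, and Il10 was at 302 and 384 FPKM while these 3 neighbours were listed at 0 in both libraries. Osm lies 16.5 kb from Lif on chromosome 11, and was at 53.8 FPKM in WT against 37.0 in KO against 1.95 and 0 for Lif. Il1a and Il1b are 54.6 kb apart on chromosome 2 with 0 coding genes between, and differed by a ratio of 2.63 and of 0.999, KO over WT.

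Some cytokine genes overlap others, and reads without strand cannot be told apart there. Il1b overlaps Il1bos and Il1a overlaps Gm14023, both on the opposite strand and not analysed here. Il18 overlaps Bco2, at 0.667 FPKM in WT against 0.133 in KO, and Tex12, listed at 0 in both libraries. The other 7 genes of the set, Il12b included, overlap 0 annotated genes.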
